A study of Mus musculus with 2 samples.

Results

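The 10 genes described here are Oas1a, Oas1g, Oas2, Oas3, Oasl1, Oasl2, Ifit1, Ifit2, Ifit3 and Isg15, members of the antiviral oligoadenylate synthetase (OAS) and IFIT families with the ubiquitin-like modifier Isg15. They were taken by symbol from the gene tables of 2 RNA-seq libraries, and all 10 were listed in both, out of 16428 genes with a read in at least 1 library. Both libraries came from macrophages sorted at day 15 from C57BL/6J mouse recipients, aged 6 to 8 weeks, of GFP+ MLL-AF9 acute myeloid leukaemia cells (500000 per mouse). One library was made from bone marrow and the other from spleen. The recipients had not been irradiated, and both groups were transplanted with leukaemia. A survival of 25 to 30 days is given for such recipients, later than the day 15 at which these cells were sorted. No library of healthy mice was analysed here. For the sort markers and the number of mice pooled, the labels give nothing.

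Type I interferons act through the Ifnar1 and Ifnar2 receptor, the kinases Jak1 and Tyk2, and the factor ISGF3, which contains Stat2 and Irf9 and binds interferon-stimulated response elements (ISREs) in promoters. OAS enzymes sense double-stranded RNA and make 2'-5'-linked oligoadenylates, which act as messengers of RNA decay. IFIT proteins are tetratricopeptide-repeat proteins that bind viral RNA or partner proteins, and Isg15 is conjugated to other proteins in response to interferon. Macrophages, dendritic cells and lymphocytes can all express these genes.

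Promoter stretches are shown because ISGF3, the factor that interferon activates, binds ISRE letters of this kind. RefSeq promoter entries (assembly GRCm38.p6, 300 bases each, 250 of them before the start) were matched for 9 of the 10 genes, Oas2 having no entry, and Ifit2 had 2 entries. The ISRE core was searched on both strands as GAAA, then 2 bases of any kind, then GAAA, which reads TTTC, 2 bases and TTTC on the other strand. It was found in 6 of the 9 genes, and over all entries in 1079 of 27025 genes (3.44% of 32851 entries). The stretches below run 5' to 3' on the gene's strand, with the matches in capitals.
Isg15 (chr4:156200819-156200918, minus strand): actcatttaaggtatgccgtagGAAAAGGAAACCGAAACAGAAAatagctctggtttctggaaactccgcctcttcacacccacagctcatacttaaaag
Oas1a (chr5:120907528-120907557, minus strand): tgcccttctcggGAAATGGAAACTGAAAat
Oas1g (chr5:120887614-120887643, minus strand): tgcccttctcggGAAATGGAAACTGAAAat
Oas3 (chr5:120777713-120777746, minus strand): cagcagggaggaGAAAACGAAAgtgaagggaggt
Ifit1 (chr19:34640785-34640813, plus strand): TTTCACTTTCcagtctcagTTTCAGTTTC
Ifit3 (chr19:34583397-34583426, plus strand): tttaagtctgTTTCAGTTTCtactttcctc

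Isg15 held 3 matches, each overlapping the next by 4 bases, between 78 and 57 bases before the start. Ifit1 held 2, Ifit3 held 2 (the second, not printed, from 156 to 147 bases before the start), Oas1a and Oas1g 2 overlapping ones each, and Oas3 held 1. The printed stretches of Oas1a and Oas1g were identical, and over the 250 bases before the start these neighbouring genes shared 86.9% of aligned positions. The letters were not found in the entries of Oasl1, Oasl2 and Ifit2. The gamma-activated element (GAS), searched as TTCNNNGAA, which reads the same on both strands, was found once in Oas1a (98 to 90 bases before the start) and once in Ifit2 (241 to 233 bases), overlapping no ISRE match, and over all entries in 2582 of 27025 genes (8.30% of entries). No source used here names the build behind the deposited tables, so the coordinates belong to the RefSeq entries. A match is a description of letters and not a measured binding site.

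After scaling, the effective depths were 9405947 uniquely placed reads for the bone marrow library and 8457857 for the spleen library. With 1 library per tissue there was no replicate check and no test. Bracketed ranges are exact 95% intervals for counting error only, and they treat each read as an independent molecule, which PCR copies are not. Levels are in CPM, reads scaled to a common library size, and 12970 genes reached the floor of 1 CPM and 10 reads in a library. A gene is called higher in 1 library where the difference in log2(CPM + 1) is at least 1. This is named the 2-fold limit here. Because of the added 1 CPM, it asks for slightly more than 2-fold in CPM. Of all genes above the floor, 14.6% met that rule towards spleen, 14.1% towards bone marrow and 28.8% in either direction.

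Markers of other cell types were present in both libraries and differed between them. The 9 neutrophil and precursor markers, led by S100a9 and Ngp, summed to 44618 CPM in bone marrow against 2019 CPM in spleen, all 9 past the limit towards bone marrow. The 7 B cell markers, led by Cd79a and Cd22, summed to 390 and 4194 CPM, and the 8 T cell markers, led by Tcf7 and Lck, to 176 and 1432 CPM, every one past the limit towards spleen. Of the 6 conventional dendritic cell markers, led by Itgax and Ccr7, 5 were also past it, at 162 and 891 CPM in sum. The 9 macrophage markers, led by Csf1r (197 and 364 CPM) and Adgre1 (53.1 and 142 CPM), summed to 446 and 936 CPM, with 5 past the limit towards spleen, and the 5 red pulp macrophage markers to 301 and 716 CPM. The 5 markers of stem, progenitor and MLL-AF9 leukaemia cells, led by Cd34 and Kit, summed to 589 and 152 CPM, those of basophils, mast cells and eosinophils to 2204 and 37.4 CPM, and those of monocytes to 464 and 209.7 CPM. Plasmacytoid dendritic cell (165 and 216 CPM), NK cell (292 and 277 CPM) and erythroid markers (29.2 and 36.9 CPM) differed less in sum. The NK cell sum joined 2 markers past the limit towards spleen and 1 past it towards bone marrow. Of the 4 erythroid markers, 1 was past it towards spleen. No marker of any list was at 0 reads. In bulk samples fewer cells of a type and less RNA per cell cannot be told apart, and the part of all these markers in the differences below was not tested.

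**Figure D1:**
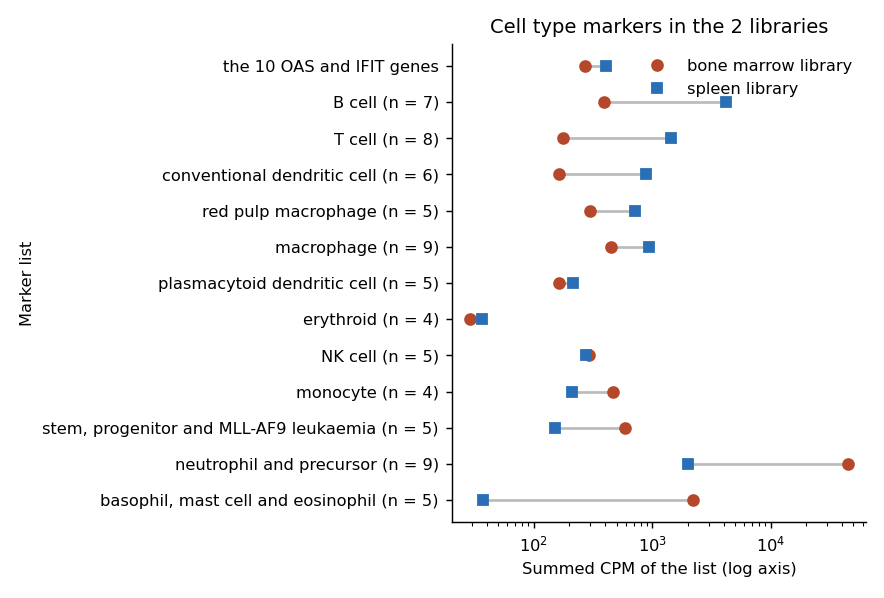
Summed CPM (log axis) of each fixed marker list and of the 10 OAS and IFIT genes in the bone marrow library (circles) and the spleen library (squares), with the number of genes per list. The 10 genes summed to 269 CPM (bone marrow) and 405 CPM (spleen), beside 390 and 4194 CPM for the B cell markers and 44618 and 2019 CPM for the neutrophil markers.

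All 10 genes were measured at moderate levels in both libraries, and 4 of them, Ifit3, Isg15, Ifit1 and Oasl1, were past the 2-fold limit towards spleen, a direction in which 14.6% of measured genes lay. None was past it towards bone marrow, and 6 lay within it. Together the genes had 2526 and 3422 reads, a summed 1.51-fold excess in spleen (1.43 to 1.59). Their median difference in log2(CPM + 1), spleen minus bone marrow, was 0.62, against -0.03 over all measured genes. The counting interval lay wholly above equality towards spleen for 8 genes, which was also so for 35.9% of measured genes, and towards bone marrow for 1 gene, Oas1g, as for 38.2% of measured genes. The differences ranged from -0.68 for Oas1g to 1.88 for Ifit3 on the log2(CPM + 1) scale. The 10 genes therefore did not differ between the libraries by a common fold.

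Levels per gene length were compared by the deposited RPKM (reads scaled to gene length and library size). In bone marrow they ran from 3.12 RPKM for Ifit3 to 15.8 RPKM for Isg15, with a median of 11.4 RPKM, against 7.31 RPKM over all listed genes. In spleen they ran from 2.06 RPKM for Oas1g to 40.7 RPKM for Isg15, with a median of 14.0 RPKM, against 7.50 RPKM over all listed genes. Oas1g alone set the lower end in spleen, where the other 9 genes ran from 9.49 RPKM for Ifit1 to 40.7 RPKM.

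In bone marrow the order of RPKM was Isg15, Oas1a, Oasl2, Oas2, Oas3, Ifit2, Oasl1, Ifit1, Oas1g and Ifit3. Among neighbours in that order only Ifit2 over Oasl1 (ratio 1.77, 1.45 to 2.18) and Oasl1 over Ifit1 (1.59, 1.21 to 2.09) differed beyond counting error. Neighbours were thus not separated within the upper 6 genes or within those below Oasl1. The ends of the upper 6 did differ, with Isg15 1.42-fold above Ifit2 (1.15 to 1.75). In spleen the order was Isg15, Oas2, Oasl2, Oas3, Oas1a, Ifit2, Oasl1, Ifit3, Ifit1 and Oas1g. In that library Isg15, Oas2 and Oasl2 each exceeded the next gene beyond counting error, as did Ifit3 over Ifit1 and Ifit1 over Oas1g, while the neighbours from Oas3 to Ifit3 were not separated. Isg15 came first in both libraries, and in bone marrow its lead over Oas1a (1.15, 0.913 to 1.44) was within counting error.

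**Figure D2:**
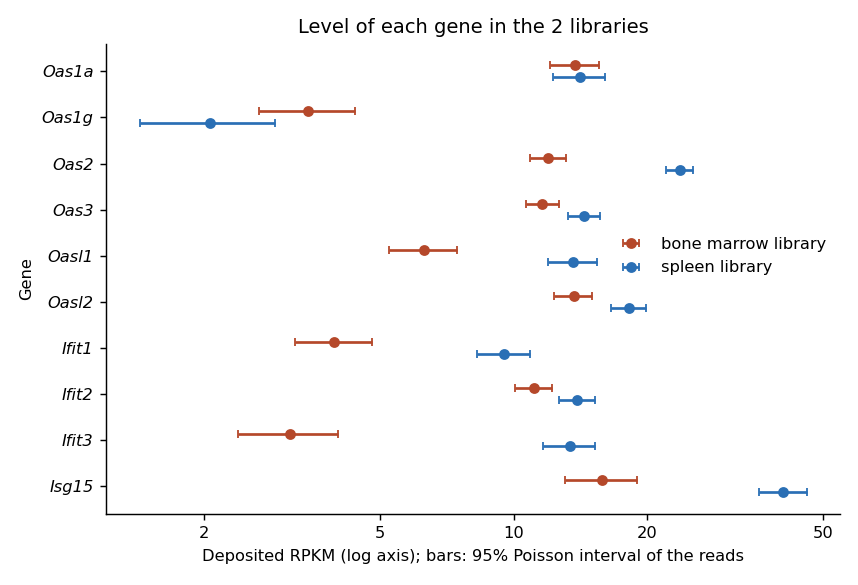
Deposited RPKM (log axis) of each of the 10 genes in the bone marrow and spleen libraries, with 95% Poisson intervals of the reads as bars. Isg15 lies highest in both libraries (15.8 and 40.7 RPKM). Oas1g is the gene whose spleen value (2.06 RPKM) lies to the left of its bone marrow value (3.44 RPKM), with bars that overlap.

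None of the 4 OAS enzymes passed the 2-fold limit, and they did not share a direction, with Oas2 higher in spleen and Oas1g in bone marrow. Oas1a (Entrez gene 246730), a double-stranded RNA sensor with synthetase activity, had 250 reads in bone marrow against 220 in spleen, or 26.6 and 26.0 CPM. Its spleen over bone marrow ratio was 0.979 (0.813 to 1.18), an interval that included equality. Oas1g (Entrez gene 23960), its close copy, had 66 and 34 reads, or 7.02 and 4.02 CPM, and was 1.75-fold higher in bone marrow (1.14 to 2.72), within the 2-fold limit. Oas1g was the least abundant of the 10 genes in spleen.

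Oas2 (Entrez gene 246728), whose protein joins a pair of synthetase units, had 446 reads (47.4 CPM) in bone marrow against 759 (89.7 CPM) in spleen, where it was 1.89-fold higher (1.68 to 2.13) and within the 2-fold limit. Oas3 (Entrez gene 246727), the largest of the synthetases and the next gene along chromosome 5, had 527 reads (56.0 CPM) and 563 reads (66.6 CPM), 1.19-fold higher in spleen (1.05 to 1.34). The 2 neighbours were at near-equal RPKM in bone marrow (ratio 1.03, 0.907 to 1.17). In spleen Oas2 exceeded Oas3 by 1.64-fold (1.47 to 1.83), an interval that did not overlap the one in bone marrow. Summed over the 4 synthetase genes the reads were 1289 and 1576, a 1.36-fold excess in spleen (1.26 to 1.46).

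The OAS-like genes encode proteins with ubiquitin-like domains. Oasl1 (Entrez gene 231655), a protein without synthetase activity that is known to restrain Irf7 translation, had 128 reads in bone marrow against 239 in spleen, or 13.6 and 28.3 CPM, a 2.08-fold excess in spleen (1.67 to 2.59). Its difference of 1.00 in log2(CPM + 1) sat on the 2-fold limit, and it was 0.99 with DESeq2 size factors. Oasl2 (Entrez gene 23962), which keeps synthetase activity, had 412 and 471 reads, or 43.8 and 55.7 CPM, and was 1.27-fold higher in spleen (1.11 to 1.45). Oasl2 exceeded its neighbour Oasl1 by 2.18-fold in RPKM in bone marrow (1.78 to 2.68) and by 1.33-fold in spleen (1.14 to 1.57).

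The IFIT genes split into Ifit1 and Ifit3 on one side and Ifit2 on the other. Ifit1 (Entrez gene 15957), which binds viral RNA caps that lack host methylation, had 100 reads in bone marrow against 207 in spleen, or 10.6 and 24.5 CPM, a 2.30-fold excess in spleen (1.80 to 2.95). Ifit3 (Entrez gene 15959), a partner of the other IFIT proteins, had 60 and 221 reads, or 6.38 and 26.1 CPM, a 4.10-fold excess (3.07 to 5.54). Ifit3 had the highest fold of the 10 genes, and its interval overlapped that of Isg15 (1.96 to 3.09) and of no other. Ifit2 (Entrez gene 15958), by contrast, had 422 and 454 reads, or 44.9 and 53.7 CPM, and was 1.20-fold higher in spleen (1.05 to 1.37).

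Per length, Ifit2 was 3.56-fold above Ifit3 in bone marrow (2.71 to 4.75) and level with it in spleen (1.04, 0.883 to 1.23). Ifit2 was 2.82-fold above Ifit1 in bone marrow (2.26 to 3.54) and 1.47-fold above it in spleen (1.24 to 1.74). By uniquely placed reads, Ifit2 was thus the prevalent IFIT gene of these 3 in the bone marrow library. The spleen library held similar values for Ifit2 and Ifit3. Ifit3 shares 51.2% of its 50-base stretches with its copy Ifit3b, and Ifit2 shares none with another gene. Unique counting can therefore understate Ifit3, and its true level relative to Ifit2 is uncertain in both libraries.

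Isg15 (Entrez gene 100038882) had 115 reads in bone marrow against 254 in spleen, or 12.2 and 30.0 CPM, a 2.46-fold excess in spleen (1.96 to 3.09). Its RPKM was 15.8 in bone marrow against 40.7 (35.8 to 46.0) in spleen. Its RPKM was 1.15 times that of Oas1a in bone marrow and 2.88 times (2.40 to 3.47) in spleen.

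**Figure D3:**
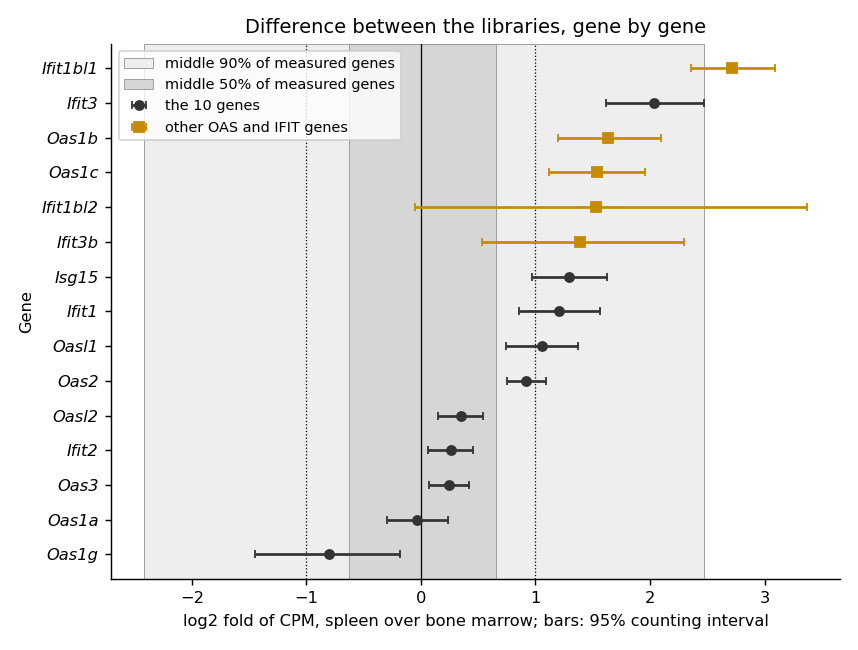
Log2 fold of CPM, spleen over bone marrow, for the 10 genes (circles) and the other measured OAS and IFIT genes (squares), with 95% counting intervals as bars; dotted lines mark 2-fold and shading the middle 50% and 90% of measured genes. Ifit1bl1 (6.57-fold) and Ifit3 (4.10-fold) lie farthest to the right, and Oas1g lies to the left of 0.

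Several relatives in the same gene clusters were also higher in spleen. Of 9 further OAS and IFIT genes 5 were measured, and their median log2(CPM + 1) difference was 1.41. Of these 5, 4 were past the limit towards spleen, against 14.6% of all measured genes. None was past it towards bone marrow, against 14.1%. Ifit1bl1, an Ifit1-like gene between Ifit3 and Ifit3b on chromosome 19, had 74 reads in bone marrow against 437 in spleen, a 6.57-fold excess (5.12 to 8.52). At 23.0 RPKM in spleen it stood above the values of Ifit1, Ifit2 and Ifit3 there (9.49, 13.9 and 13.4 RPKM), whereas in bone marrow it was at 3.35 RPKM. Ifit3b, the close copy of Ifit3, had 17 and 40 reads, a 2.62-fold excess (1.45 to 4.92), and Ifit1bl2 had 5 and 13 reads, with an interval of 0.967 to 10.4 that included equality.

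Within the Oas1 group the copies did not share a direction. Oas1b, which RefSeq lists as a transcribed pseudogene in this C57BL/6J assembly, had 58 reads in bone marrow against 162 in spleen, a 3.11-fold excess (2.29 to 4.27). Oas1c had 68 and 177 reads, a 2.89-fold excess (2.18 to 3.89). Both intervals lay above those of Oas1a and Oas1g, which sit a few genes farther along the same cluster. Oas1d, Oas1e and Oas1f had no uniquely placed read in either library, and Oas1h had 0 and 2 reads. By counting error alone, no read allows up to 0.319 CPM (bone marrow) and 0.355 CPM (spleen).

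The deposited counts hold only uniquely placed reads, and 3 of the 10 genes share much of their sequence with a copy. In GENCODE M21 transcripts 57.6% of the 50-base stretches of Oas1a and 54.7% of those of Oas1g also occurred in another gene, nearly all of them in each other. The aligned positions of the 2 transcripts were 97.5% identical. For Ifit3 the share was 51.2%, all of it with Ifit3b. It was 7.13% for Ifit1, mostly with Ifit1bl2, and at most 3.96% for the other 6 genes. With 100-base stretches the shares of Oas1a, Oas1g and Ifit3 were 40.9%, 38.2% and 31.7%. No source used here gives the read length.

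The deposited covered share of each gene's length was lowest in the same 3 genes. Reads covered 51.7% of Oas1a in bone marrow and 47.3% in spleen, 36.9% and 34.6% of Oas1g, and 50.5% and 63.3% of Ifit3. The other 7 genes were covered over 78.4% to 98.7% of their length. Listed genes within 1.3-fold of the reads and length of Oas1a had a median covered share of 94.8% in bone marrow and 94.15% in spleen. Those like Oas1g had 71.2% and 52.3%, and those like Ifit3 had 68.9% and 93.8%. Oasl2, which shared no 50-base stretch with another gene, was also below the median of genes like it. Its covered share was 82.2% against 95.3% in bone marrow and 80.7% against 95.9% in spleen. Levels of Oas1a, Oas1g, Ifit3 and Ifit3b are uncertain, since they share much sequence with a copy and only uniquely placed reads were counted.

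**Figure D4:**
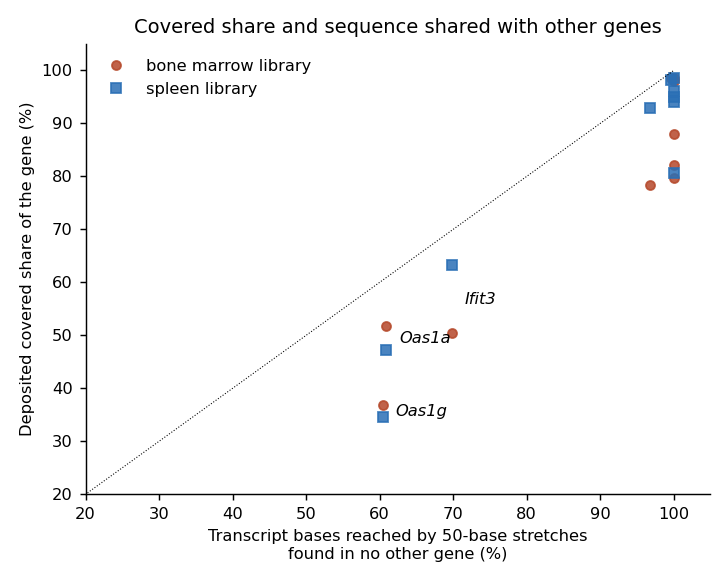
Deposited covered share of each gene (vertical axis, percent) against the share of its transcript that 50-base stretches found in no other gene can reach (horizontal axis, percent), for the 10 genes in each library; the dotted line marks equal shares. Oas1a, Oas1g and Ifit3 stand apart at 60.9%, 60.5% and 69.8% reachable bases, and the other 7 genes lie at 96.8% or more.

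Some of the genes of the interferon receptor, its kinases and ISGF3 were higher in spleen. Of 6 receptor, kinase and ISGF3 genes, 3 were past the limit towards spleen, against 14.6% of all measured genes. None was past it towards bone marrow, against 14.1%. The median log2(CPM + 1) difference of the 6 genes was 1.02. Stat2 was at 66.4 CPM in bone marrow against 179 CPM in spleen (2.70-fold, 2.46 to 2.97), Irf9 at 71.1 and 164 CPM, and the receptor chain Ifnar1 at 93.0 and 206 CPM. The other receptor chain, Ifnar2, was at 99.4 and 100.4 CPM, a ratio of 1.01 (0.919 to 1.11), and Jak1 and Tyk2 were 1.86-fold and 1.79-fold higher in spleen.

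Apart from Ifng, uniquely placed reads of the listed interferon genes were at or near 0. Of 11 interferon ligand genes, 9 had no uniquely placed read in either library, including Ifnb1 and the listed Ifna genes. By counting error alone this allows up to 0.319 and 0.355 CPM for each. Sequence shared among the ligand genes was not examined. Reads that fit more than 1 place were not counted, so the true levels could be higher. Ifnk had 1 read in bone marrow against 0 in spleen. Ifng, the type II interferon of T and NK cells, was the 1 measured ligand, with 58 reads in bone marrow against 50 in spleen (4.99 and 5.01 RPKM), a ratio of 0.959 (0.643 to 1.42). No difference in uniquely placed ligand reads was detectable at this depth.

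Sensors upstream of interferon went in more than 1 direction. Of 15 nucleic acid sensing genes, 4 passed the limit towards spleen and 1 towards bone marrow, and 10 lay within it. Of all measured genes 14.6% passed it towards spleen and 14.1% towards bone marrow. The median log2(CPM + 1) difference of the 15 genes was 0.55. The endosomal receptor Tlr3, a sensor of double-stranded RNA, was at 4.68 CPM in bone marrow against 27.8 CPM in spleen (5.94-fold, 4.29 to 8.39). Tlr9 and Tlr7 were 5.73-fold and 3.86-fold higher in spleen. B cells also express both, and the part of B cells in these differences was not tested. Ddx58, the cytosolic sensor RIG-I, was 2.14-fold higher in spleen (1.95 to 2.35), whereas its relative Ifih1 was at 47.4 and 57.3 CPM. Irf7, the factor that amplifies interferon production, was at 68.4 and 138 CPM. This was 2.01-fold in CPM but just inside the limit on the log2(CPM + 1) scale. Mb21d1, the DNA sensor cGAS, was at 55.7 CPM in bone marrow against 21.0 CPM in spleen, 2.65-fold higher in bone marrow (2.23 to 3.16).

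The enzymes of Isg15 conjugation were mostly just inside the 2-fold limit. Of 5 genes, 1 was past the limit towards spleen, against 14.6% of all measured genes. This was Usp18, which removes Isg15 from its targets and dampens receptor signalling, with 132 and 353 reads (2.97-fold, 2.43 to 3.66). The activating enzyme Uba7 was 1.91-fold (1.77 to 2.05), the ligase Herc6 1.92-fold (1.67 to 2.22) and Trim25 1.84-fold (1.71 to 1.97) higher in spleen. Ube2l6, the conjugating enzyme, was at 39.9 CPM in bone marrow against 33.5 CPM in spleen, a ratio of 0.839 (0.717 to 0.982). The conjugating enzyme thus did not share the direction of Isg15 itself.

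Among 36 antiviral effectors, of which Ifih1 also counts among the sensors above, 13 passed the limit towards spleen and 2 towards bone marrow. Of all measured genes 14.6% and 14.1% did so. The other 21 effectors lay within the limit, and the median log2(CPM + 1) difference of the 36 was 0.86. Helz2, a helicase and co-activator, was at 127 CPM in bone marrow against 670 CPM in spleen (5.26-fold, 4.94 to 5.61), and Ifi27l2a was at 32.5 and 131 CPM. Mx1, a GTPase that blocks virus replication, was at 14.4 and 51.8 CPM (3.61-fold, 2.97 to 4.41), and Samhd1, which depletes nucleotides, at 227 and 818 CPM. Both genes past the limit towards bone marrow encode interferon-induced membrane proteins that block virus entry. Ifitm1 was at 114 CPM in bone marrow against 15.0 CPM in spleen (7.60-fold, 6.32 to 9.21), and Ifitm2 at 177 and 40.2 CPM (4.40-fold, 3.91 to 4.96). Their relative Ifitm3, at 151.5 and 77.1 CPM, was 1.97-fold higher in bone marrow (1.79 to 2.16), just inside the limit. Rsad2 (viperin), at 19.5 and 25.8 CPM, and Eif2ak2 (PKR), at 72.6 and 65.6 CPM, lay within 2-fold, as did Cmpk2, which was 1.40-fold higher in bone marrow (1.22 to 1.61).

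**Figure D5:**
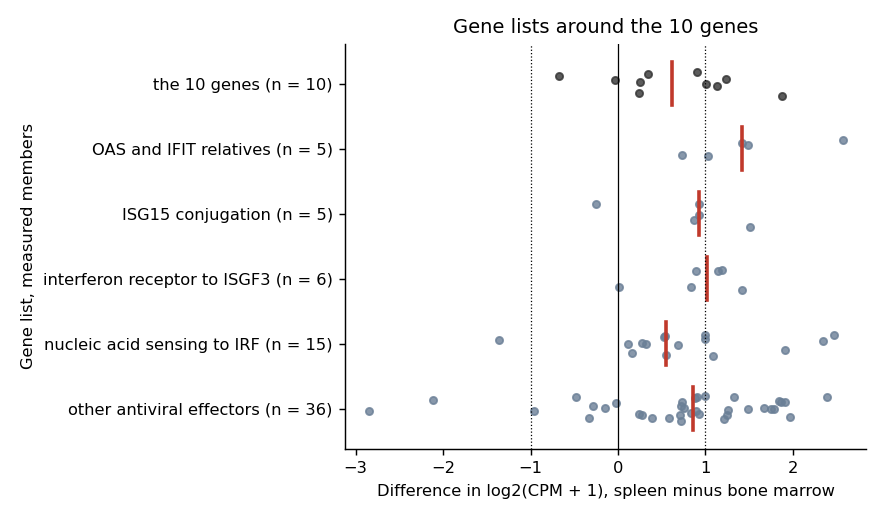
Difference in log2(CPM + 1), spleen minus bone marrow, for the measured members of each gene list (points, spread vertically for legibility), with the list median as a bar and dotted lines at 2-fold. The interferon ligands, with 1 measured gene, are not plotted. The medians of the 5 plotted lists run from 0.55 for nucleic acid sensing to 1.41 for the OAS and IFIT relatives, and the 10 genes have a median of 0.62.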

How the data were processed

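RNA-seq gene tables of 2 libraries were used, 1 from bone marrow and 1 from spleen. For each gene the authors deposited, per the file headers, a count of uniquely placed reads, the gene length, the percent of the length covered by reads, and RPKM. No source used here names the aligner, counter, build or annotation. Tables were joined on the Entrez identifier, and a gene absent from a table was given 0 reads. CPM were computed from the counts with TMM scaling in edgeR 4.0.16 (R 4.3.3). Log2 ratios used a pseudocount of 1 CPM and so are too small for low genes. Fold intervals were exact conditional binomial and level intervals exact Poisson (scipy 1.17.1), and a count of 0 allowed up to 3 reads. The procedure was tried on simulated Poisson counts. These could not test for PCR copies, reads that fit more than 1 place or differences between animals. Other settings tried were pseudocounts of 0.1 and 5, a floor of 10 CPM or none, a 4-fold rule, the deposited RPKM, scaling by library totals or by DESeq2 1.42.0 size factors, and scaling without the markers of other cells.

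The members and the 6 pathway and 12 marker lists were chosen with earlier results of these data known. Named genes were the 10 members, of each pathway list at least the 3 measured genes with the largest difference and the 2 most abundant, with other measured genes optional, the 2 most abundant markers of a list, and the 3 other genes nearest to the members' medians. Of the genes first listed, 2 are not reported here and were left out of the list counts.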

Additional observations from a re-analysis of the deposited data

How the results depend on the processing

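The count of 4 genes higher in spleen was 3 with DESeq2 size factors, 2 with a pseudocount of 5 and 0 under a 4-fold rule, and 4 under the other 6 settings. The pseudocount of 5 took Ifit1 (0.91) and Oasl1 (0.84) inside the 2-fold limit on the log2 scale and left Isg15 at 1.02 and Ifit3 at 1.45. No setting gave a gene higher in bone marrow. The median difference of the 10 genes was 0.91 with a floor of 10 CPM, which dropped Oas1g, and between 0.58 and 0.69 in the other settings. Over 6 settings that change a ratio, 8 genes stayed above 0, Oas1g stayed below it, and Oas1a ran from -0.04 to 0.03. Of 108 counts of the pathway lists, 6 moved by over 1.5 times, all under the 4-fold rule. The nucleic acid sensing count towards spleen rose from 4 to 6, just at that bound, under 3 settings. These were library totals, a pseudocount of 0.1 and the deposited RPKM. No paired analysis was possible because each tissue had 1 library. With 1 library per tissue, differences between animals were not measured, and genes with few reads, such as Ifit1bl2, are limited by depth.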

Other observations

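The genes nearest to the medians of the 10 genes in both libraries (distance over 2 libraries on log2(CPM + 1)) were Pus3, an RNA pseudouridine synthase, at 19.1 CPM (bone marrow) and 28.7 CPM (spleen), Dguok, a mitochondrial nucleoside kinase, at 18.7 and 29.2 CPM, and Rnf103, a ubiquitin ligase, at 19.6 and 28.8 CPM. With 2 libraries such likeness is common, and 130 measured genes lay within 0.25 of the medians.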
